A study of Morus alba var. atropurpurea with 12 samples.

Results

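Roots of the mulberry cultivar Yuesang10 (Morus alba var. atropurpurea), a woody plant grown for leaves and fruit, kept in nutrient solution with 20 mM cadmium chloride were compared with roots kept in 5 mM, the highest and the lowest dose analysed here. The comparison takes 6 of the 12 libraries, the 3 labelled 20 mM and the 3 labelled 5 mM, and asks which transcripts differ between strong and weak exposure. The other 6 libraries, 3 of the control without cadmium and 3 at 10 mM, are used to place the transcripts that differed. All 4 groups were seedlings grown in soil, trimmed at shoot and root, held for 3 days in full-strength Hoagland solution and harvested after 20 days of treatment, with fresh solution every 5 days. The controls had the same solution without cadmium. The doses in mM are those of the labels and could not be checked. The treatment text speaks of more groups than the 4 analysed here, so highest and lowest refer to these 4. Separate plants are not named for the libraries of a group, so the p-values rest on the spread between these libraries alone, which may be technical. The labels give root as the tissue while the series text speaks of fruit, and tissue markers were not checked because the tables used here carry transcript identifiers without gene names.

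Cadmium has no known function in higher plants. It enters roots largely through carriers for iron, zinc, manganese and calcium, binds to thiol groups, and is held back by glutathione and by phytochelatins, the peptides made from it, which carry the metal into the vacuole. Plants also answer it with antioxidant enzymes, chaperones and changes of the cell wall. Which of the transcripts below belong to these systems was not determined, since no identifier could be paired with a gene or a protein, and no sequence is shown for the same reason.

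Levels are given in FPKM, fragments scaled to transcript length and to the mapped fragments of the library, as the authors deposited them, and a transcript that a table did not list was set to 0. Changes are differences of log2(FPKM + 1), a scale that understates the changes of low transcripts. A transcript was tested if it reached 1 FPKM in at least 3 of the 12 libraries, which 17782 of 22727 did, and it was called if its limma p-value, adjusted by Benjamini and Hochberg's method, was below 0.05. The 6 libraries listed between 19507 and 20071 transcripts. The correlation between libraries across the tested transcripts, a description since transcripts are not replicates, ran from 0.957 to 0.969 within 5 mM, from 0.943 to 0.963 within 20 mM and from 0.931 to 0.953 between the doses. The number of reads is unknown. The steps between low values put the relative worth of 1 read between 0.959 and 1.01 in these 6 libraries, so their depths lay close together.

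Between 5 and 20 mM, 19 transcripts rose and 36 fell, or 0.309% of those tested (0.107% higher and 0.202% lower). The 36 that fell had means from 4.68 to 765 FPKM at 5 mM, with a median of 24.3 FPKM. At 20 mM they stood at 0.0900 to 94.9 FPKM, with a median of 3.65 FPKM. Over all tested transcripts the median was 11.1 FPKM at 5 mM and 11.2 FPKM at 20 mM. A wide fall needs a level to fall from, so the choice itself favours a higher level at 5 mM. The 19 that rose had a median of 10.4 FPKM at 5 mM and of 43.7 FPKM at 20 mM, where their means ran from 2.65 to 324 FPKM. In RNA of whole tissue, fewer cells of a type and less RNA per cell cannot be told apart. Calling favours wide changes, so the sizes of called changes may be overstated. The falls had a median log2 change of -2.30 and a range from -4.91 to -1.02, and 25 of the 36 were at least 2 log2 units. The rises ran from 0.78 to 3.64 with a median of 1.89, and 8 of the 19 were at least 2 log2 units. The highest of these values belongs to a transcript listed at 0 at 5 mM and depends on the pseudocount. Over all tested transcripts the median log2 change was 0.00, with the 5th percentile at -0.83 and the 95th at 0.73.

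**Figure D1:**
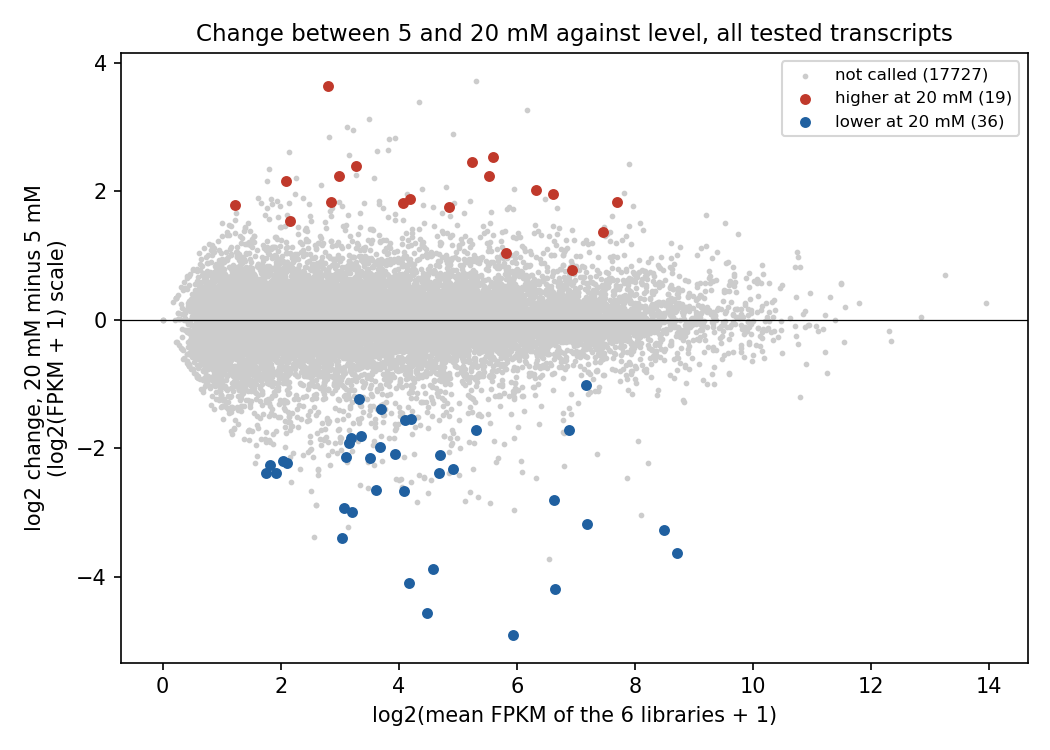
Each point is 1 of the 17782 tested transcripts, with log2 of its mean FPKM over the 5 and 20 mM libraries plus 1 on the x axis and its log2 change, 20 mM minus 5 mM, on the y axis. The 19 called higher (red) and the 36 called lower (blue) lie between the lowest and highest levels, as most tested transcripts do. The lower ones reach further from 0, and many uncalled transcripts (grey) have changes as large.

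In the plot of change against level the calls lie between means of 1 and 1000 FPKM, as most tested transcripts do. The called share was 0.277% at a mean of 1 to 10 FPKM over the 6 libraries, 0.363% at 10 to 100 and 0.440% at 100 to 1000 FPKM. These shares lie near the 0.309% of all tested transcripts. Below 1 FPKM, where the scale understates changes, limma called 0 of 1208 transcripts, while 85 had an unadjusted p below 0.05. Of the 80 transcripts with a mean of 1000 FPKM or more, limma called 0, while 8 had an unadjusted p below 0.05. With 0.309% of all tested transcripts called, a count of 0 among 80 does not set these transcripts apart. Among the 100 most abundant transcripts the log2 changes ran from -1.20 to 1.05 with a median of -0.01, and 8 had an unadjusted p below 0.05, near the 9.67% of all tested transcripts. Of the called transcripts, 5 of the 19 risen and 8 of the 36 fallen ones had a mean of at least 100 FPKM at the dose where they were higher. Over all tested transcripts this held for 2075 of 17782.

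The largest rise among the called transcripts was that of XM_010100665.1. It was listed in none of the 5 mM libraries and stood at 7.99, 11.15 and 16.7 FPKM in replicates 1 to 3 at 20 mM (limma adjusted p = 0.000186). It was also listed in no control library, and the 10 mM libraries held 0.84, 0.89 and 1.7 FPKM. The transcript thus appeared at 10 mM in all 3 libraries at a low level, below each 20 mM library. No fold is given for it, because the level at 5 mM is listed at 0. Its control and 5 mM values, all at 0, add no spread to the shared estimate. Fitted on the 5 and 20 mM libraries alone, limma gave an adjusted p of 0.00636.

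XM_010105063.1 was present in every library and rose from 14.71, 10.17 and 15.43 FPKM at 5 mM to 81.75, 87.26 and 76.32 FPKM at 20 mM. The log2 change was 2.54 ± 0.28 (SE, n = 3 per group, limma adjusted p = 0.00227), and the mean FPKM was 6.09 times as high. The 3 libraries at 20 mM lay close together, at 81.8 ± 5.47 FPKM (SD, n = 3), and far from every 5 mM library. At 10 mM the values were 24.0, 52.55 and 40.08 FPKM, between the doses in each library. The controls held 11.12, 18.2 and 14.67 FPKM, a range that overlaps that of 5 mM.

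XM_010088470.1 had the largest fall among the tested transcripts. Replicates 1 to 3 held 113.75, 94.33 and 143.96 FPKM at 5 mM but 1.37, 3.31 and 4.75 FPKM at 20 mM, and no values of the groups overlapped. The log2 change was -4.91 ± 0.35 (SE, n = 3 per group, limma adjusted p = 0.000161). Its 10 mM values, 29.09, 12.43 and 18.41 FPKM, lay below all 5 mM and above all 20 mM libraries. The change from 5 to 10 mM was called, at -2.55 ± 0.35 log2 units (SE, limma adjusted p = 0.0279). That from 10 to 20 mM, -2.35 ± 0.35, was not called (limma adjusted p = 0.055). In the controls XM_010088470.1 stood at 67.3, 78.63 and 91.33 FPKM. Each 5 mM library was thus above each control, a difference that limma did not call (adjusted p = 0.645).

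XM_010089470.1 went from 57.86, 29.66 and 37.93 FPKM at 5 mM to 1.01, 0.58 and 0.67 FPKM at 20 mM, nearly absent in every library there. The log2 change was -4.56 ± 0.39 (SE, n = 3 per group, limma adjusted p = 0.000344). At 10 mM it was already low, at 2.6, 4.27 and 1.68 FPKM, below each 10 mM value of XM_010088470.1. The step from 5 to 10 mM was called and the next was not. That held for XM_010088470.1 too, but its steps of -2.55 and -2.35 log2 units were nearly equal. The second step of XM_010089470.1 lies between low levels, where the scale understates changes. The change from 5 to 10 mM was -3.48 ± 0.39 log2 units (SE, adjusted p = 0.0235), while that from 10 to 20 mM, -1.09 ± 0.39, was not called (adjusted p = 0.417). The controls held 62.18, 103.53 and 34.13 FPKM and overlapped the 5 mM libraries.

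**Figure D2:**
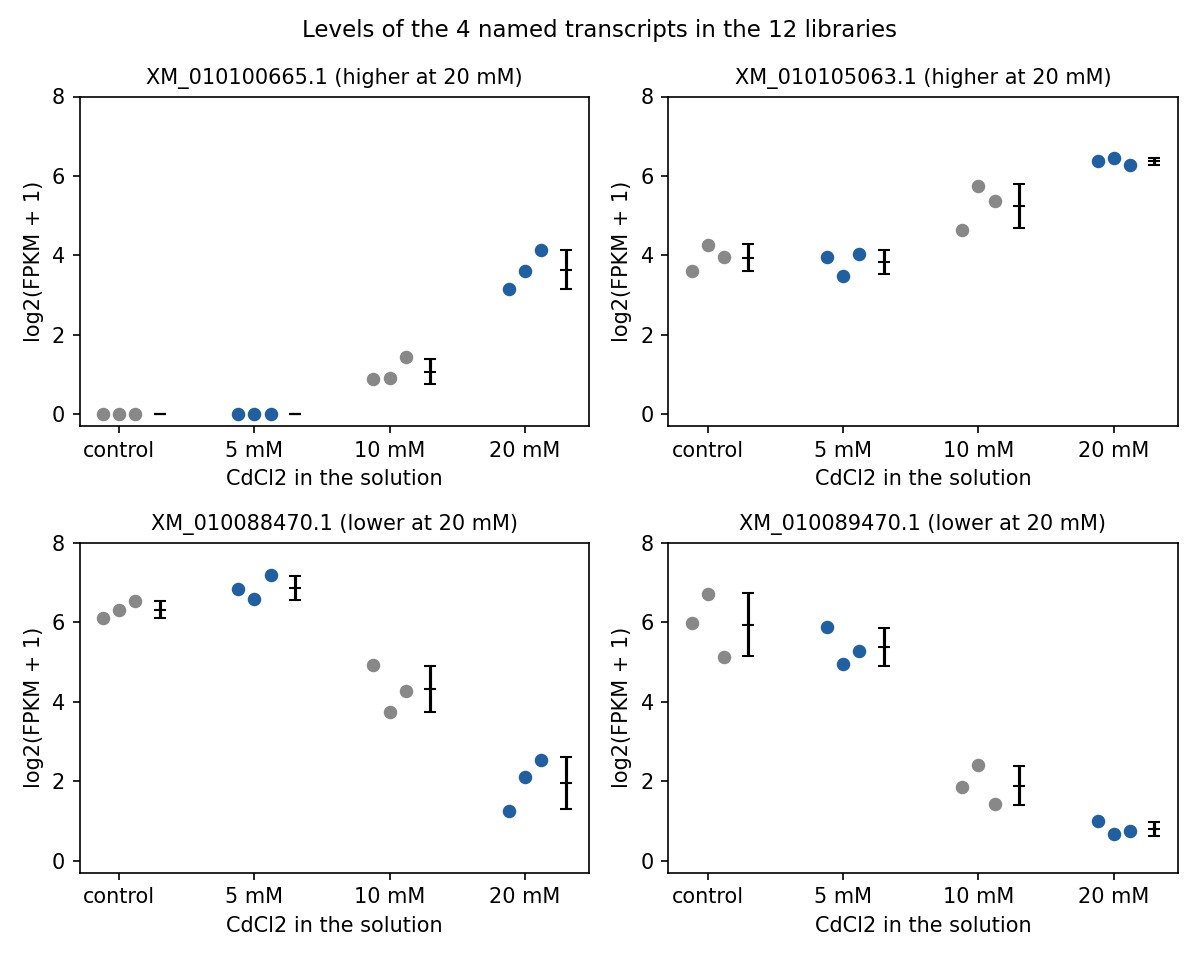
Levels of the 4 named transcripts as log2(FPKM + 1) in each library, 1 point per library, with blue for the 5 and 20 mM libraries compared and grey for control and 10 mM; the bar beside the points is the mean ± SD of 3 libraries. In each panel the 5 and 20 mM points do not overlap, and XM_010089470.1 is already low at 10 mM while XM_010100665.1 is listed there at a low level, below each 20 mM library.

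The same order held for most called transcripts. The mean log2 level at 10 mM, which took no part in the difference itself, lay between those at 5 and 20 mM for 17 of the 19 risen and 34 of the 36 fallen transcripts. Over all tested transcripts it lay between them in 32.0%. A wide gap between 2 doses holds another value more often. Among transcripts that changed by at least 1 log2 unit without being called, it lay between them in 257 of the 380 higher and 435 of the 540 lower ones. Each 10 mM mean was placed on a scale that runs from 0 at the 5 mM mean to 1 at the 20 mM mean. Its median position was 0.43 for the transcripts that rose and 0.51 for those that fell, against 0.57 over all tested transcripts. Single transcripts spread widely around these medians: the 10 mM mean was closer to 20 mM for 6 of the 19 and 18 of the 36. Over all tested transcripts it was closer to 20 mM in 9380 of 17782. In 9 of the 19 and 17 of the 36, the libraries of 1 dose did not overlap those of the next at either step, both steps going the same way, as was seen in 73 (0.411%) of all tested transcripts. These steps contain the 5 and 20 mM libraries by which the transcripts were chosen.

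The control libraries lay on the side of 5 mM. Their mean was nearer to 5 mM than to 20 mM for 17 of the 19 that rose and for all 36 that fell, and beyond 20 mM for none of the 55. Over all tested transcripts it was nearer to 5 mM in 10040 of 17782 and beyond 20 mM in 5556. Here too a wide gap matters, and among the transcripts that changed by at least 1 log2 unit without being called it was nearer to 5 mM for 256 of the 380 higher and 449 of the 540 lower ones. Between 5 mM and control the called transcripts had a median log2 difference of 0.00 for those that rose and 0.20 for those that fell, against 0.07 over all tested transcripts. No overlap between 5 mM and control was seen in 4 of the 19, each lower at 5 mM, and in 3 of the 36, each higher at 5 mM. Such a gap was seen in 16.9% of tested transcripts, 7.22% lower and 9.66% higher at 5 mM. Between 5 mM and control limma called 0 of the 55, with 9 of them at an unadjusted p below 0.05, and 2 (0.0112%) of all tested transcripts, with 9.13% at an unadjusted p below 0.05.

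**Figure D3:**
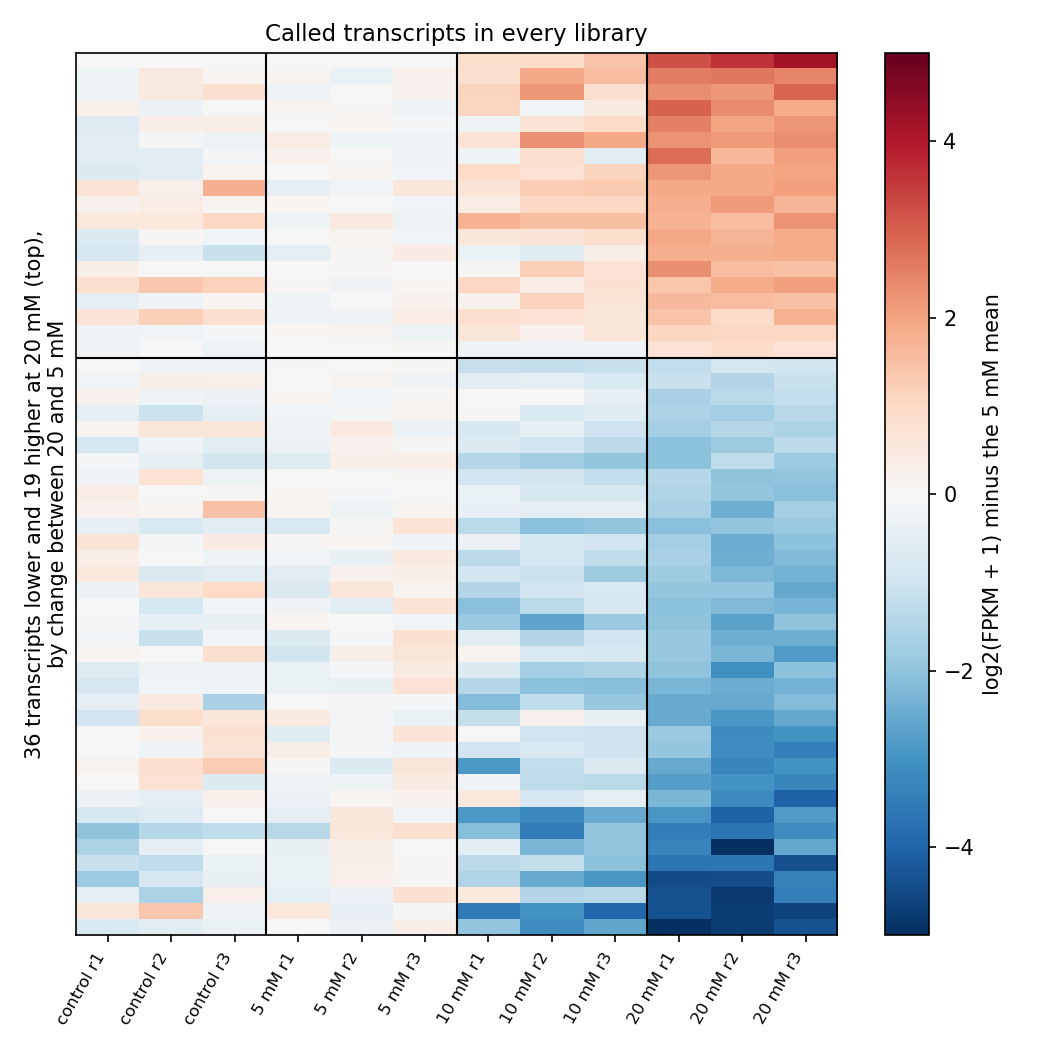
Colour gives log2(FPKM + 1) minus the mean of the 5 mM libraries for the 55 called transcripts (rows, ordered by change, the 19 higher above the line and the 36 lower below it) in the 12 libraries (columns, r1 to r3 are replicates). The control columns are pale like the 5 mM columns, the 20 mM columns are the strongest, and the 10 mM columns are intermediate; the 5 and 20 mM columns are those by which the rows were chosen.

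The 10 mM and control libraries also give a comparison that shares no library with the difference between 20 and 5 mM, though all 12 libraries share the fitted spread. Of the 19 transcripts that were higher at 20 mM, 16 were higher at 10 mM than in control, and of the 36 that were lower, 35 were lower. The median log2 difference between 10 mM and control was 0.58 for the 19 and -1.03 for the 36, against 0.09 over all tested transcripts. Separate ranges at 10 mM and control were seen for 9 of the 19, all higher at 10 mM, and for 20 of the 36, all lower. Over all tested transcripts 18.8% had such a gap, 12.5% upward and 6.29% downward. With limma's adjusted p below 0.05, 4 of the 36 were called between 10 mM and control and none of the 19, out of 23 calls (0.129%) over all tested transcripts. An unadjusted p below 0.05 was found for 25 of the 36 and 10 of the 19, against 15.5% of all tested transcripts. The 19 and the 36 were chosen with values of these data known, so the counts are given without a test. In transcripts that changed by at least 1 log2 unit between 5 and 20 mM without being called, the same direction at 10 mM against control was seen in 65.0% of those higher and 78.9% of those lower.

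**Figure D4:**
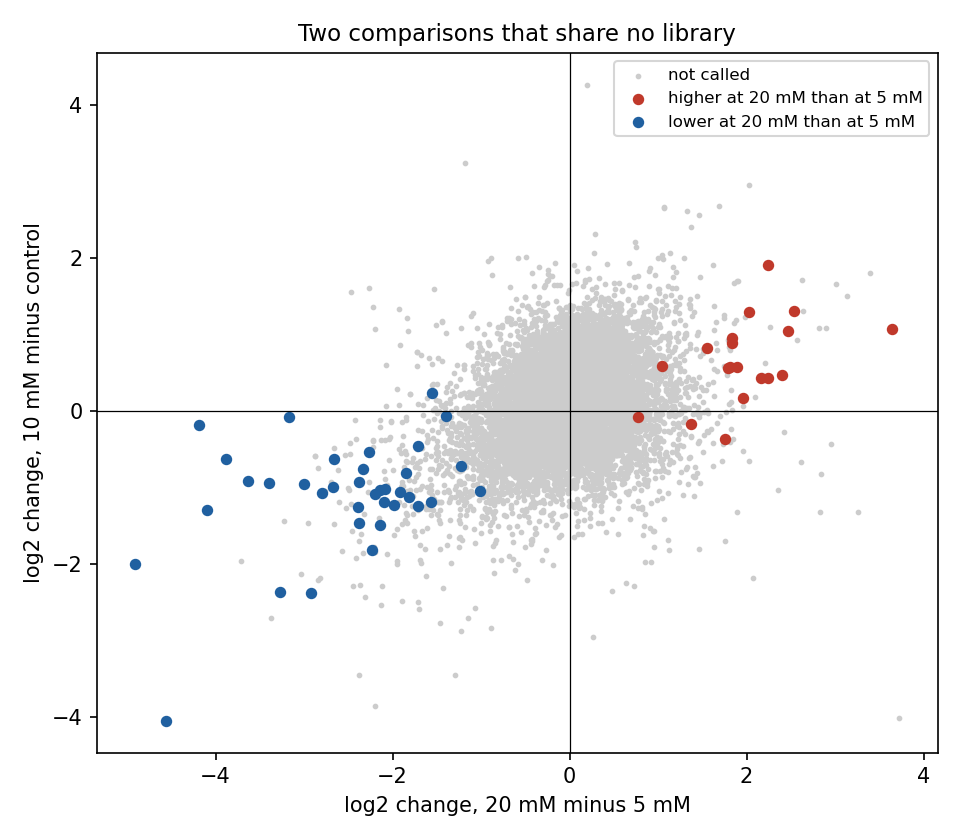
The log2 change between 20 and 5 mM (x axis) and between 10 mM and control (y axis), 2 comparisons with no library in common, for each tested transcript; grey points were not called between 20 and 5 mM. Of the 36 called lower (blue) 35 lie below 0 on the y axis, and of the 19 called higher (red) 16 lie above it.

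Replicate 1 at 10 mM stood apart from the other 10 mM libraries. The first principal component of the 12 libraries held 20.3% of the variance, with transcripts centred but not scaled. Scores were divided by the square root of the number of transcripts. Replicate 1 lay at -0.16, between the 5 mM libraries at -0.15 to -0.10 and the controls at -0.38 to -0.16. Replicates 2 and 3 lay at 0.25 and 0.18, near the 20 mM libraries at 0.23 to 0.35. In the called transcripts that rose replicate 1 had a median position of 0.32, against 0.39 and 0.44 in replicates 2 and 3. For those that fell it was 0.42, against 0.50 and 0.54. Over all tested transcripts the median position was 0.34 in replicate 1, near these values, and 0.86 and 0.53 in replicates 2 and 3. Without replicate 1 the 10 mM mean lay between 5 and 20 mM in 17 of the 19 and 32 of the 36. The direction against control was then shared by 16 of the 19 and all 36.

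Summed over the 36 fallen transcripts, the level was 2548, 3559 and 3337 FPKM in the 5 mM libraries and 502, 368 and 532 FPKM at 20 mM. The controls, with 2036, 2354 and 3182 FPKM, overlapped the 5 mM libraries, and the 10 mM libraries held 1852, 979 and 1043 FPKM. As a share of all FPKM the sum was 0.355% ± 0.0587 at 5 mM and 0.0508% ± 0.0081 at 20 mM (SD, n = 3). The 19 risen transcripts summed to 431, 445 and 488 FPKM at 5 mM and to 1504, 1337 and 1556 FPKM at 20 mM. Their 10 mM sums of 684, 749 and 762 FPKM lay above all controls, which held 464, 606 and 628 FPKM, and below all 20 mM libraries. The transcripts in these sums were chosen for the difference between 5 and 20 mM. The control and 10 mM libraries did not enter that difference, but their spread is part of the fit that made the choice.

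The call between 20 and 5 mM did not always go with a call between 20 mM and control, a comparison that shares the 20 mM libraries. Of the 19 that rose, 15 were also called against control, and of the 36 that fell, 30 were, against 226 (1.27%) of all tested transcripts. The 4 risen transcripts without that call had log2 differences of 0.48 to 1.14 between 20 mM and control and of -1.09 to -0.69 between 5 mM and control, so that their mean was lowest at 5 mM. The 6 fallen transcripts without the call had log2 differences of 0.46 to 1.57 between 5 mM and control and of -1.86 to -0.87 between 20 mM and control, so that their mean was highest at 5 mM. Every 5 mM library lay below every control for 3 of the 4, and above every control for 1 of the 6, where 7.22% and 9.66% of all tested transcripts showed such gaps. In all 10 the control mean lay between the 5 and 20 mM means. These 10 were picked by a call against 5 mM and none against control, with the same standard error in both comparisons. The choice alone puts the control mean on the 20 mM side of 5 mM, so these positions and gaps are no separate result.

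Many transcripts with wide differences were not called. A log2 change of at least 1 in either direction was seen in 974 transcripts (5.48%), 398 higher (2.24%) and 576 lower (3.24%), and 54 of them were called. At 2 log2 units or more there were 126 (0.709%), of which 33 were called. The median standard error was 0.33 for the 55 called transcripts and 0.67 for the 93 with a change of at least 2 log2 units that were not called, against 0.29 over all tested transcripts. No overlap between the 5 and 20 mM libraries was seen in all 55 and in 17.4% of tested transcripts, 8.63% higher and 8.82% lower at 20 mM. An unadjusted p below 0.05 was found for 1719 (9.67%), 821 higher (4.62%) and 898 lower (5.05%). The weakest call had an adjusted p of 0.0497 and the next transcript one of 0.0518.

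The counts fell whichever of the 6 compared libraries was left out, which also leaves fewer libraries in a group. Whether single libraries or the smaller group lowered them was not tested. The 4 named transcripts, picked for large changes in these data, were called whichever library was left out. Without 5 mM replicates 1, 2 and 3 in turn there were 37, 19 and 18 calls. Without 20 mM replicates 1, 2 and 3 in turn there were 23, 26 and 39. Leaving out replicate 1 at 10 mM, which enters through the shared estimate of the spread, gave 83. The risen transcripts numbered 9, 7 and 7 without 5 mM replicates 1, 2 and 3 in turn. They numbered 7, 11 and 13 without 20 mM replicates 1, 2 and 3. In all 12 such fits 15 transcripts were called, 5 higher and 10 lower, among them the 4 named ones, and 39 of the 55 were called in at least 6. The 5 that rose had log2 changes of 1.83 to 3.64, and the 10 that fell had changes of -4.91 to -1.85. All 55 kept their direction in each of the 12 fits. Array weights in the fit of all libraries raised the calls to 298 higher and 374 lower, while the replicate number as a block in a fit of the 6 libraries alone left 0 higher and 3 lower by limma, with 2006 at an unadjusted p below 0.05.

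**Figure D5:**
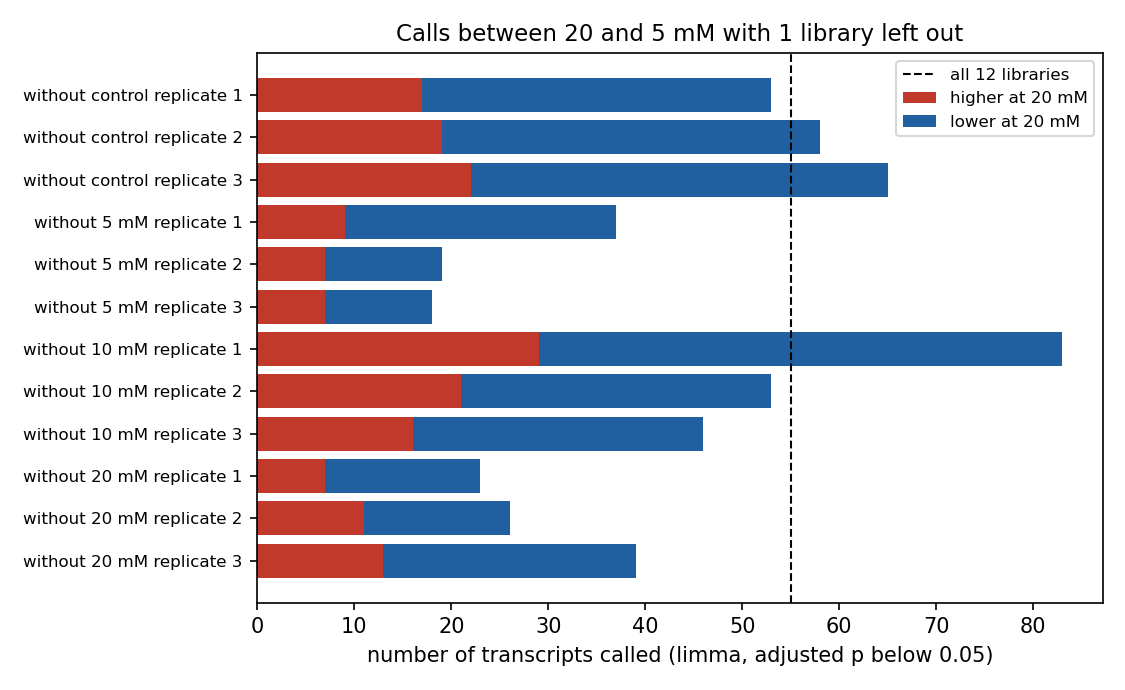
Number of transcripts called between 20 and 5 mM (x axis, red for higher and blue for lower at 20 mM) when 1 of the 12 libraries is left out (rows); the dashed line marks the 55 calls with all libraries. The count is lowest, at 18 and 19, without 5 mM replicates 3 and 2, and highest, at 83, without 10 mM replicate 1.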

How the data were processed

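Messenger RNA of mulberry tissue, labelled as root, was measured in 12 libraries, grouped by the dose and replicate number in their titles. For each library the authors deposited a table of FPKM per transcript, per the file headers, rounded to 2 decimals and listing values of at least 0.01. The aligner, annotation, build and filters: not given in the sources used here. FPKM divides out depth and length, so abundant transcripts can shift the rest, and transcripts of near-identical copies, whose reads can be split, were not identifiable by name.

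Values were analysed as log2(FPKM + 1) with limma 3.58.1 in R 4.3.3, on group means over all 12 libraries (8 residual degrees of freedom) without a block and with a mean-variance trend, and p-values were adjusted over the 17782 transcripts that reached 1 FPKM in 3 or more libraries. The fit was tested on simulated data. Counting depth was examined in 1090 sparse transcripts, where 85.5% of 7012 values were whole multiples, within 0.1, of what 1 read is worth, and 78.1% of the 3537 values above 1.5 times that worth. FPKM gives no absolute depth, so no counting interval is given.

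The text names the 2 called transcripts per direction with the largest log2 change among those with a mean of at least 5 FPKM at 1 dose and no overlap between doses. Gene lists written as product names, the tissue markers among them, could not be applied to identifiers without names. Comparison, transcripts and lists were chosen with earlier results of these data known. Alternatives were another pseudocount, filters, scalings, variance models, array weights, a replicate block, fits of the 6 libraries alone, a minimum change and each library left out.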

Additional observations from a re-analysis of the deposited data

How the results depend on the processing

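The counts of 19 risen and 36 fallen transcripts stayed within 1.5 times under quantile normalization, median scaling, robust moderation without a variance trend, a minimum log2 change of 1, a pseudocount of 0.1, the filter at a mean of 5 FPKM and no filter at all. Array weights, which gave 5 mM replicate 2 a weight of 2.98 and 20 mM replicate 1 one of 2.63 against 0.66 to 0.93 for the other 4 libraries compared, called 298 higher and 374 lower, and the 6 libraries fitted alone called 32 higher and 63 lower; the cause was not tested. With 1 library left out, between 7 and 29 were called higher and between 11 and 54 lower. Same-numbered 5 and 20 mM libraries did not deviate together (correlations across transcripts of 0.06, 0.01 and -0.18, and not every library correlated best with its own number), so the numbers are not taken as pairs. With the replicate block in the fit of all libraries 14 were called higher and 32 lower, 37 of the 55 among them. The replicate block in a fit of the 6 libraries alone, an alternative chosen after seeing the data, called 0 higher (limma, with 2006 transcripts at an unadjusted p below 0.05 in either direction) and 3 lower, on fewer libraries. There XM_010100665.1 and XM_010105063.1 lost their calls (adjusted p = 0.0605 each, limma), which they kept in the other alternatives (4.1e-05 to 0.00636 and 8.0e-05 to 0.0204), and XM_010088470.1 and XM_010089470.1 were called in all 23. No direction reversed in any named transcript. XM_010100665.1 has no value at a mean of at least 5 FPKM, which it does not reach. Without read numbers, what depth limits could not be stated.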

Other observations

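Presence in the tables differed between the doses mainly among low transcripts. Of the 22727 transcripts listed in any library, 36 were listed in all 3 libraries at 20 mM and in none at 5 mM, and 72 in all 3 at 5 mM and in none at 20 mM. The levels where listed were low, with medians of 0.467 FPKM for the 36 and 0.548 FPKM for the 72. XM_010100665.1, at a mean of 11.9 FPKM, was the highest of the 36. The highest of the 72 had a mean of 9.90 FPKM. All 3 control libraries listed 27 of the 72 and 6 of the 36, and no control library listed 7 of each set. All 3 libraries at 10 mM listed 16 of the 72 and 7 of the 36. No share over other transcripts of such low level was taken, so these counts do not tell the 36 and the 72 apart. Only 8 of the 36 and 18 of the 72 passed the filter on low values. Of these limma called 1 of the 8 and 0 of the 18, against 0.309% of all tested transcripts.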
